A study of Homo sapiens with 9 samples.

Results

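The genes described here were CIITA and 9 genes of the major histocompatibility complex (MHC) class II pathway, namely HLA-DRA, HLA-DRB1, HLA-DPA1, HLA-DPB1, HLA-DQA1, HLA-DQB1, HLA-DMA, HLA-DMB and CD74. They were chosen by symbol, and all 10 were found by their Ensembl identifier among the 60617 genes in the files. Genomic positions below follow GENCODE release 44 (GRCh38). PC-3 is an established human cell line of castration-resistant prostate cancer. RNA was sequenced from 3 vehicle-treated control libraries, from 3 libraries of cells given 1 µM decitabine, which inhibits DNA methyltransferases, and from 3 libraries of cells given the same decitabine together with 200 µM S-adenosylmethionine (SAM), the methyl donor of the cell, called the combination below. Doses and the vehicle follow the methods of the study and the 5 days of treatment follow the labels. No library of cells given SAM alone was analysed here. Nothing states whether the 3 libraries of a group came from separate cultures, so the tests measure the spread between libraries, which may be technical.

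MHC class II molecules are pairs of an alpha and a beta chain that present peptides from the endosome to CD4+ T cells. The invariant chain, encoded by CD74, fills the groove of a new class II molecule and escorts it to the endosome, where HLA-DM, a pair of HLA-DMA and HLA-DMB, exchanges the last piece of the invariant chain for a peptide. CIITA is the coactivator that class II genes depend on. It does not bind DNA itself but joins the RFX complex, NF-Y and CREB on the X and Y boxes of their promoters. Dendritic cells, B cells and macrophages make CIITA at all times, while epithelial cells mostly make it after interferon gamma.

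Libraries held between 21934307 and 22489684 estimated counts. Values below are counts, or CPM (the count set against the library total, as edgeR's cpm gives it) with TMM factors, which lay at 0.895 to 0.902 for controls and 1.033 to 1.078 for the treated libraries. The 3 comparisons came from a single quasi-likelihood fit of edgeR to all 9 libraries, with p-values adjusted by the Benjamini-Hochberg method over the 18532 genes that passed its filter on low counts. A gene was called at an adjusted p-value under 0.05. As a check of the cell line, KRT8 and KRT18 were abundant, with at least 2156 and 6870 counts per library, and KLK3 had none.

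The 6 genes for the chains of HLA-DR, HLA-DP and HLA-DQ stayed at or near 0 counts in every library. HLA-DRA (ENSG00000204287, chromosome 6, 32439878 to 32445046), the alpha chain of HLA-DR, had 1 count in combination replicate 2 and 0 counts in the other 8 libraries. HLA-DRB1 (ENSG00000196126, chromosome 6, 32577902 to 32589848), its most common beta chain, had 0 counts in all 9 libraries. A count of 0 allows up to 3 counts per library, which corresponds to 0.126 to 0.150 scaled CPM, so that transcripts below this level were not detectable at this depth.

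Chains of HLA-DP were just as rare. HLA-DPA1 (chromosome 6, 33064569 to 33080775) had a single count in control replicate 2, decitabine replicate 3 and combination replicate 3 and 0 counts elsewhere. HLA-DPB1 (chromosome 6, 33075990 to 33089696) had 0, 1 and 3 counts in the controls, 0 counts in each decitabine library, and 0, 0 and 2 counts after decitabine plus SAM. These groups overlapped, and the highest value of the gene was in a control. HLA-DPA1 and HLA-DPB1 also share exon sequence on opposite strands.

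For HLA-DQ, HLA-DQA1 (chromosome 6, 32628179 to 32647062) had 1, 0 and 0 counts in the controls, 2, 1 and 1 after decitabine, and 0, 1 and 0 after decitabine plus SAM. HLA-DQB1 (chromosome 6, 32659467 to 32668383) had 0 counts in the controls, 0, 1 and 1 after decitabine, and 0, 1 and 0 after decitabine plus SAM. Summed over the 6 chain genes and 3 libraries, there were 6 counts in the controls, 7 after decitabine and 6 after decitabine plus SAM. None of the 6 genes had enough counts to be tested. Reads from near-identical genes such as HLA-DRB1 and HLA-DRB5 can be split or lost in counting, and reads that differ from the reference allele may not be counted, which was not tested.

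Further class II genes were as low. HLA-DRB5, HLA-DQA2, HLA-DQB2, HLA-DRB9, HLA-DPA2 and HLA-DQB1-AS1 had 0 counts in all libraries. HLA-DOA and HLA-DOB encode HLA-DO, an inhibitor of HLA-DM found mainly in B cells. HLA-DOA had 2, 0 and 0 counts in the controls, 1, 3 and 1 after decitabine, and 2, 1 and 0 after decitabine plus SAM. HLA-DOB had 1, 2 and 2 counts, then 4, 3 and 5, and then 0, 4 and 3 in the same order. The pseudogenes HLA-DRB6 and HLA-DPB2 had at most 1 count in a library. None of these genes was tested.

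**Figure D1:**
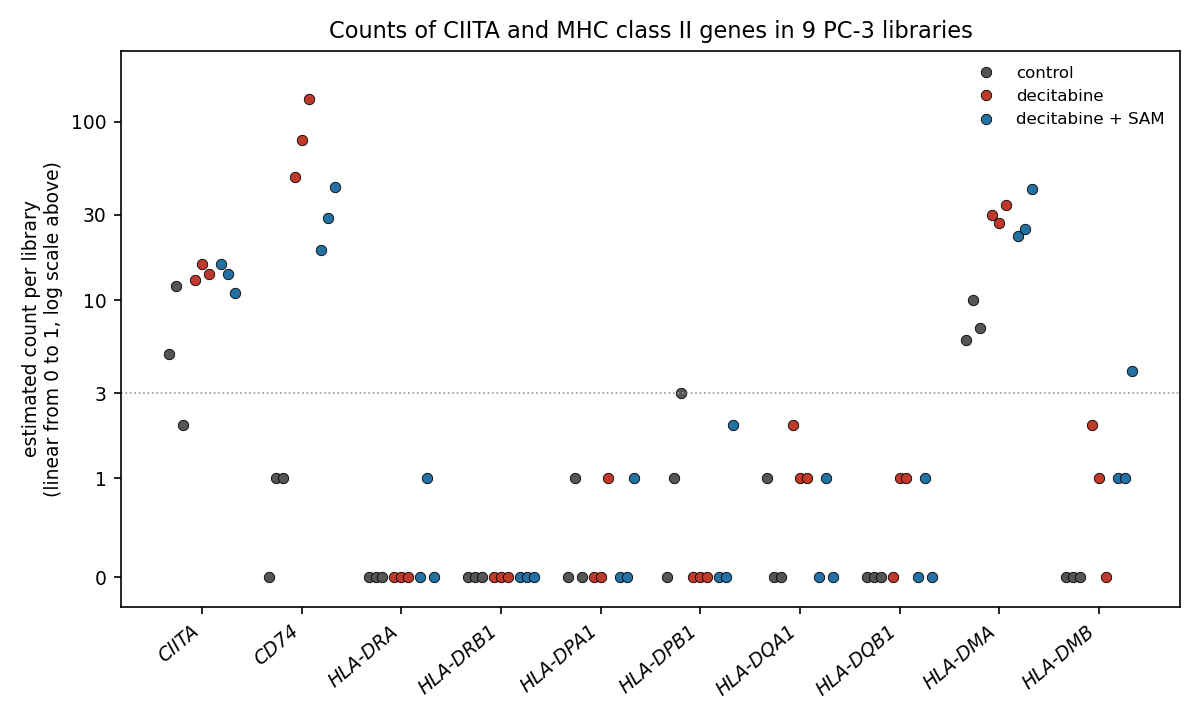
Estimated count per library (vertical axis, linear from 0 to 1 and on a log scale above) of CIITA, CD74 and the 8 HLA genes in 3 control, 3 decitabine and 3 combination libraries, 1 point per library, with a dotted line at 3 counts. CD74 and HLA-DMA lie higher in all treated libraries than in all controls, CIITA overlaps between groups, and the 6 chain genes of HLA-DR, HLA-DP and HLA-DQ never exceed 3 counts.

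CD74 and HLA-DMA were the genes of the group that rose with treatment. CD74 (ENSG00000019582, chromosome 5, 150401637 to 150412969) had 0, 1 and 1 counts in the controls, 49, 79 and 134 after decitabine, and 19, 29 and 43 after decitabine plus SAM. The 3 groups did not overlap, with the decitabine libraries highest and the controls at or next to 0. Of all genes tested, 38.0% were higher in every decitabine library than in every control, and 37.9% were higher in every combination library. Its level was 0.0331 ± 0.0287 CPM (SD, n = 3) in the controls, 3.69 ± 1.83 after decitabine and 1.31 ± 0.502 after decitabine plus SAM. The log2 fold change was 6.58 after decitabine (standard error 0.68, adjusted p = 2.2e-06 in the edgeR fit) and 5.09 after decitabine plus SAM (standard error 0.79, adjusted p = 8.2e-05 from the same edgeR test). With only 2 counts over the 3 controls, the size of this rise is poorly fixed. The ratio of scaled counts was 111 after decitabine, with an exact 95% interval of 30.5 to 925, and 39.7 after decitabine plus SAM, with an interval of 10.7 to 333. Both intervals cover counting error only.

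HLA-DMA (ENSG00000204257, chromosome 6, 32948613 to 32969094), the alpha chain of HLA-DM, had 6, 10 and 7 counts in the controls, 30, 27 and 34 after decitabine, and 23, 25 and 42 after decitabine plus SAM. All 6 treated libraries lay above all 3 controls, while the treatments overlapped. The level rose from 0.381 ± 0.106 CPM (SD, n = 3) to 1.28 ± 0.151 after decitabine and 1.29 ± 0.428 after decitabine plus SAM. The log2 fold change was 1.74 after decitabine (standard error 0.34, adjusted p = 0.00042 in the edgeR fit) and 1.75 after decitabine plus SAM (standard error 0.34, adjusted p = 0.00041). An exon of HLA-DMA overlaps BRD2 on the opposite strand, and no source used here says that counting used strand. BRD2 had 3816 to 4135 counts in the controls and 2711 to 3465 in the treated libraries, and its part in the counts of HLA-DMA was not tested.

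HLA-DMB (ENSG00000242574, chromosome 6, 32934629 to 32941028), the partner of HLA-DMA, stayed far lower. It had 0 counts in the 3 controls, 2, 1 and 0 after decitabine, and 1, 1 and 4 after decitabine plus SAM. Over 3 libraries this gave 6 counts after decitabine plus SAM, with an exact Poisson 95% interval of 2.20 to 13.1, and 3 after decitabine, with an interval of 0.619 to 8.77. Each combination library lay above the controls, by 1 count at the least. HLA-DMB was too low to be tested, and without a filter on low counts its adjusted p-value from edgeR's quasi-likelihood test was 0.065 after decitabine plus SAM and 0.22 after decitabine.

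CIITA (ENSG00000179583, chromosome 16, 10866222 to 10943021) was present at a trace level in all 9 libraries. It had 5, 12 and 2 counts in the controls, 13, 16 and 14 after decitabine, and 16, 14 and 11 after decitabine plus SAM. The decitabine libraries lay above every control, but only by 1 count over control replicate 2, and the combination libraries overlapped with the controls. The level was 0.316 ± 0.257 CPM (SD, n = 3) in the controls, 0.605 ± 0.0636 after decitabine and 0.593 ± 0.116 after decitabine plus SAM. On the scale of CPM, control replicate 2 with 0.600 lay inside the decitabine range of 0.549 to 0.674. The log2 fold changes of 0.93 after decitabine (standard error 0.47, adjusted p = 0.092 in the edgeR fit) and 0.90 after decitabine plus SAM (standard error 0.47, adjusted p = 0.11) were not called. Without control replicate 2 the log2 fold changes were 1.76 (adjusted p = 0.0088 from edgeR) and 1.73 (adjusted p = 0.010 from edgeR), and both were called. The gene also passed with library size as the only scaling, at 1.17 after decitabine (adjusted p = 0.038) and 1.12 after decitabine plus SAM (adjusted p = 0.048), and with voom and limma for decitabine alone (1.18, adjusted p = 0.043). CIITA overlaps DEXI on the opposite strand, which had between 492 and 774 counts per library. The counts are per gene, so the alternative promoters of CIITA were not told apart.

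**Figure D2:**
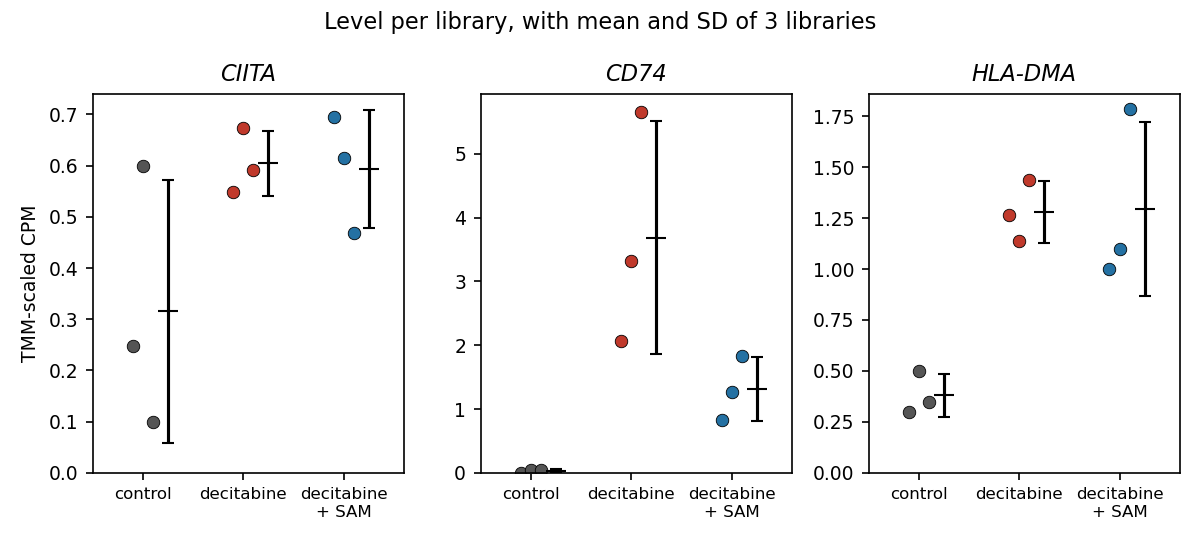
TMM-scaled CPM of CIITA, CD74 and HLA-DMA in each library (points, 3 per group), with the mean and SD of each group (bar) and a separate vertical axis for each gene that starts at 0. CD74 falls into 3 levels, from 0.0331 in the controls to 1.31 after decitabine plus SAM and 3.69 after decitabine, HLA-DMA into 2, and 1 control of CIITA lies among the treated libraries.

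Thus 3 of the 10 genes, CIITA, CD74 and HLA-DMA, were tested, and all 3 passed the filter through the treated libraries alone, since no more than 1 control reached 10 counts for any of them. A gene that is let in this way had to be higher with treatment, so their calls, those of CIITA under other settings included, are to be read from the values above. Upregulation was called for 2 genes after decitabine, where 36.3% of all genes tested were upregulated, and for the same 2 after decitabine plus SAM, where 35.9% were. None of the 3 was downregulated against the controls, where 32.5% of all genes were after decitabine and 31.3% after decitabine plus SAM. Both comparisons used the same 3 controls.

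Set against the length of annotated exon sequence, levels could be ordered between genes. In the controls HLA-DMA led with 0.151 CPM per kb, with CIITA at 0.0140 and CD74 at 0.00731. After decitabine CD74 had 0.815 CPM per kb with a range of 0.457 to 1.25, HLA-DMA had 0.508 with a range of 0.451 to 0.570, and CIITA had 0.0268. After decitabine plus SAM HLA-DMA had 0.514 and CD74 0.289, with ranges that met at 0.397 and 0.404. CD74 and HLA-DMA thus overlapped with each treatment, and CIITA lay below both. B2M, the light chain of MHC class I, had 123 CPM per kb in the controls and 296 after decitabine. Lengths were summed over all annotated exons of a gene, which lowers the value of genes with many rare exons such as CIITA.

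Decitabine plus SAM was also compared after decitabine, to ask what the addition of SAM changed. CD74 was lower after decitabine plus SAM, with -1.49 on the log2 scale (standard error 0.37, adjusted p = 0.018 in the edgeR fit). This was 2.80-fold lower, and the highest combination library, with 43 counts, lay below the lowest decitabine library, with 49. Of the 3 genes tested it alone was called lower, as were 8.02% of all genes tested, and 16.8% of all lay lower in every combination library. None was called higher, against 7.67% of all. The call on CD74 was lost when combination replicate 1 was left out (-1.25, adjusted p = 0.074 from edgeR), without combination replicate 2 (-1.47, adjusted p = 0.086) and without decitabine replicate 2 (-1.56, adjusted p = 0.055). It was kept without any other library, and the value stayed between -1.81 and -1.04. HLA-DMA differed by 0.02 (standard error 0.28, adjusted p = 0.97 in the edgeR fit) and CIITA by -0.03 (standard error 0.41, adjusted p = 0.97). From counting error alone, the ratio of decitabine plus SAM to decitabine had an exact 95% interval of 0.750 to 1.37 for HLA-DMA and 0.622 to 1.54 for CIITA.

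**Figure D3:**
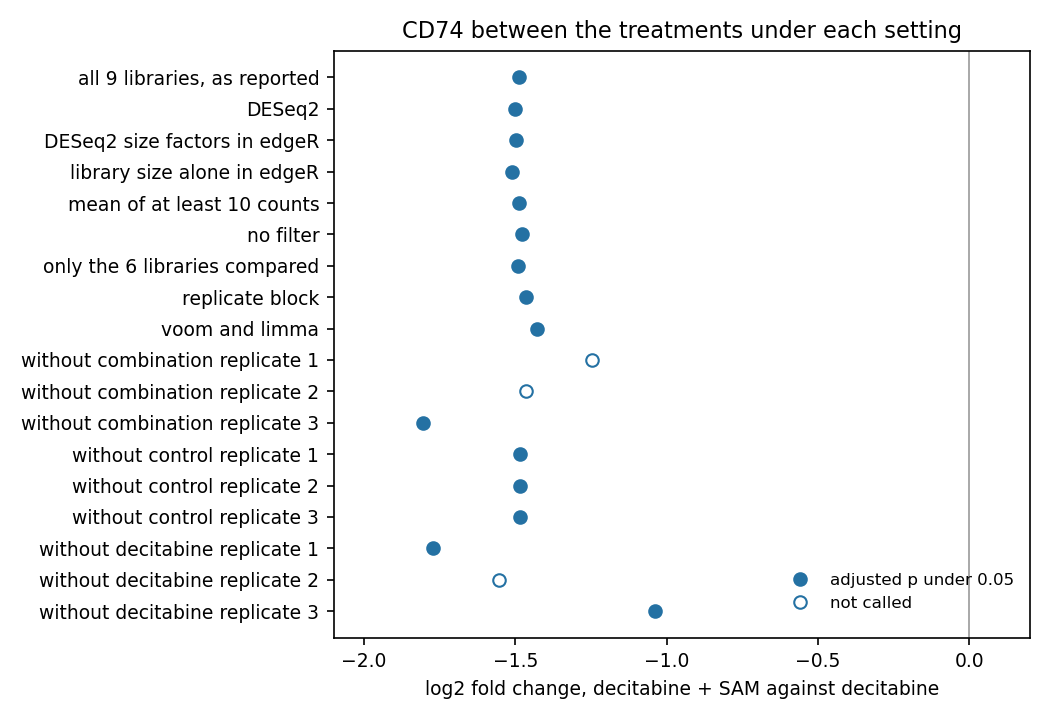
Log2 fold change of CD74 (horizontal axis) for decitabine with SAM against decitabine, for the fit as reported and 17 other settings, with filled points for an adjusted p-value under 0.05. All points lie below 0, between -1.81 and -1.04, and 3 of the 9 fits that left out a library are open.

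Promoter windows of 300 bases, from 250 bases before to 50 after a RefSeq transcription start on GRCh38.p14, were at hand for 8 of the 10 genes, and those for CIITA and HLA-DRA were not used here. These are reference sequences and not those of PC-3. Decitabine lowers methylation at CpG sites, and 8 of the 9 windows held fewer CpG sites than the median of 14 over all 35116 windows. CD74 and HLA-DMA had 3 CpG sites each, HLA-DMB 4, HLA-DPB1 2, HLA-DQB1 7, and HLA-DRB1 and HLA-DQA1 1 each. HLA-DPA1 had 2 windows, with 4 and 27. Few CpG sites were thus found both for genes that rose and for genes without counts, and methylation was not measured in these files.

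The windows of CD74 (chr5:150412861-150413160), HLA-DMA (chr6:32953048-32953347) and HLA-DRB1 (chr6:32589799-32590098), all on the minus strand, are shown because the first 2 belong to the genes that rose and the last to a gene without counts. Capitals mark TGATG, the core of the X2 box, and ATTGG, the core of the Y box that NF-Y binds, on either strand.
CD74: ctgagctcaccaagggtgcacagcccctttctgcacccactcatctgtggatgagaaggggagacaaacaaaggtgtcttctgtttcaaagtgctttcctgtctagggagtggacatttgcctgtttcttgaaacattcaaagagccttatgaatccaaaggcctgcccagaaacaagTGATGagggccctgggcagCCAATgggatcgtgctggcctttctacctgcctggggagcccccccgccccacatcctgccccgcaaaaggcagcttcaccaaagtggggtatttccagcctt
HLA-DMA: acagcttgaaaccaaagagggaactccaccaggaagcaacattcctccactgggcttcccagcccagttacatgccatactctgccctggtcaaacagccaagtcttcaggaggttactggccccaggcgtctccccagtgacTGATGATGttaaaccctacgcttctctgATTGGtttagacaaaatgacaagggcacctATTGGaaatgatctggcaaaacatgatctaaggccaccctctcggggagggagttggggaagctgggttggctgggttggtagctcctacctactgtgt
HLA-DRB1: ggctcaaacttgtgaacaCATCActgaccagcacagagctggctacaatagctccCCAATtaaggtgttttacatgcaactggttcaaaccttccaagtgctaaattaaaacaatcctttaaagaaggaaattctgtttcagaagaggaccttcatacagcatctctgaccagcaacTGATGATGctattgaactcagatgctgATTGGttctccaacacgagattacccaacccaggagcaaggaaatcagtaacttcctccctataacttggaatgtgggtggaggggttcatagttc
In HLA-DRB1 and HLA-DMA, overlapping copies of TGATG were followed on the same strand by ATTGG, which began 46 bases before the start in HLA-DRB1 and 79 bases before it in HLA-DMA. In CD74, TGATG began 72 bases before the start, and the ATTGG after it was on the opposite strand, 53 bases before the start. Both motifs were found on either strand in 7 of the 9 windows and in 12.1% of all windows. GCAAC, a core of the X1 box, was found in 3 of the 9 windows and in 33.6% of all. The letters were chosen after the windows had been read. They do not show that a factor was bound.

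The factors that CIITA joins on class II promoters were present in every group. RFX5, the large subunit of the RFX complex, had 56.0 ± 5.48 CPM (SD, n = 3) in the controls, 54.4 ± 6.41 after decitabine and 44.7 ± 1.09 after decitabine plus SAM. Its log2 fold change of -0.32 after decitabine plus SAM (adjusted p = 0.0073 in the edgeR fit) was not called with library size as the only scaling (-0.10, adjusted p = 0.34). RFXANK, another subunit, fell by 0.38 after decitabine (adjusted p = 0.0014 from edgeR, and 0.17 with library size as the only scaling) and by 0.83 after decitabine plus SAM (adjusted p = 1.6e-06). RFXAP, the third subunit, had 3.76, 4.01 and 3.72 CPM in the controls, after decitabine and after decitabine plus SAM and was not called. Of 11 genes for promoter-binding factors, all tested, 1 was upregulated and 5 downregulated with each treatment, where 36.3% and 35.9% of all genes tested were upregulated and 32.5% and 31.3% downregulated. Their median log2 fold change was -0.17 after decitabine and -0.14 after decitabine plus SAM, where the median of all genes tested was 0.03 and 0.05. The upregulated gene was NFYB, a subunit of NF-Y, at 0.33 and 0.20, the latter lost when control replicate 1 or 2, decitabine replicate 2 or combination replicate 1 or 3 was left out. The largest decrease in this list was in ZXDA, at -1.28 and -1.61. Of 10 cofactors of CIITA, 0 were upregulated and 4 downregulated after decitabine, and 1 and 6 after decitabine plus SAM, where 32.5% and 31.3% of all genes tested were downregulated. The decrease was largest in SMARCA4, at -1.20 and -1.22. The list of cofactors also holds histone deacetylases, which were among the genes downregulated with each treatment, so its counts are not of coactivators alone.

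Genes upstream of CIITA in the response to interferon gamma moved apart from each other. IFNGR1, a chain of the receptor, rose from 20.1 ± 1.88 CPM (SD, n = 3) to 46.2 ± 7.07 after decitabine and 47.7 ± 7.44 after decitabine plus SAM. IFNGR2 had log2 fold changes of 0.02 and 0.07, and JAK2 of -0.12 and -0.21, none of them called, although IFNGR2 was with library size as the only scaling (0.26 and 0.29). IRF1, a factor that acts on the CIITA promoter, rose by 1.15 after decitabine (adjusted p = 8.4e-06 in the edgeR fit) and had 0.24 after decitabine plus SAM (adjusted p = 0.15 from edgeR, and 0.015 with library size as the only scaling). SOCS1, an inhibitor of JAK kinases, rose by 2.45 and 1.55. PRDM1, which represses CIITA in plasma cells, went from 0.116 ± 0.103 CPM to 1.72 ± 0.614 and 1.64 ± 0.710. It had at most 4 counts in a control and passed the filter on low counts through the treated libraries, so its calls are to be read from these values. Of the 13 genes in this list 12 were tested. After decitabine 7 were upregulated and 2 downregulated, with a median of 0.42, and after decitabine plus SAM 4 and 3, with a median of -0.0041. Of all genes tested, 36.3% were upregulated and 32.5% downregulated after decitabine, and 35.9% and 31.3% after decitabine plus SAM, so the counts after decitabine plus SAM were close to these shares. Between the treatments 6 were lower and 0 higher after decitabine plus SAM, beside 8.02% and 7.67% of all genes tested.

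Of 13 genes for enzymes that act on class II molecules or their cargo, and for inhibitors of such enzymes, all tested, 10 were upregulated after decitabine and 9 after decitabine plus SAM, with a median of 0.57 and 0.39, and 1 was downregulated with each. Over all genes tested, 36.3% and 35.9% were upregulated and 32.5% and 31.3% downregulated, and the difference from these shares was not tested. IFI30, a reductase that opens disulfide bonds of antigens and is itself inducible by interferon gamma, had 393 to 438 counts in the controls, 2045 to 2882 after decitabine, and 2195 to 2549 after decitabine plus SAM. Its log2 fold changes were 2.27 and 2.31 (adjusted p = 5.4e-09 and 4.9e-09 in the edgeR fit), and the treatments differed by 0.04. LGMN, an endosomal protease, rose by 1.27 and 1.08. CTSS, the main protease of the invariant chain in professional antigen-presenting cells, had 3, 12 and 3 counts in the controls, 21, 48 and 89 after decitabine, and 9, 30 and 66 after decitabine plus SAM. The gene passed the filter on low counts through its treated libraries, so its calls are to be read from these counts. It rose by 2.88 after decitabine (adjusted p = 0.025 from edgeR), but not without decitabine replicate 3 (adjusted p = 0.070), control replicate 1 (0.085) or control replicate 3 (0.086), nor without a filter (0.083). After decitabine plus SAM it had 2.32 (adjusted p = 0.066 from edgeR), and its combination libraries overlapped with the controls. Leaving out combination replicate 1 (adjusted p = 0.015 from edgeR) or decitabine replicate 1 or 3 (0.048 each), the replicate number as a block (0.0010), DESeq2 (0.0022), only the 6 libraries compared (0.042) and library size as the only scaling (0.048) called it. CTSL was not called, at 0.02 and -0.11, except after decitabine when library size was the only scaling (0.27). The gene that fell was MARCHF8, a ubiquitin ligase that removes class II molecules from the cell surface, at -0.66 and -0.79. CTSH alone differed between the treatments, at 0.43 higher after decitabine plus SAM (adjusted p = 0.030 from edgeR), where 7.67% of all genes tested were higher. The call on CTSH was lost without decitabine replicate 1 or 2 and without combination replicate 1 or 2.

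CD74 is also a surface receptor for MIF, with CD44 as its partner. MIF fell by 1.14 on the log2 scale after decitabine and by 0.79 after decitabine plus SAM, and CD44 rose by 0.35 and 0.26, the latter lost without control replicate 1 or 2 or combination replicate 3. Of 6 genes around this receptor 5 were tested, and 3 were upregulated with each treatment, while 2 were downregulated after decitabine and 1 after decitabine plus SAM, beside 36.3% of all genes tested upregulated and 32.5% downregulated after decitabine, and 35.9% and 31.3% after decitabine plus SAM. The largest increase was that of ACKR3 at 1.77 and 1.88. Among 8 other genes linked to CIITA or to costimulation, 7 were tested. After decitabine 4 were upregulated and 0 downregulated, and after decitabine plus SAM 5 and 2, beside the same shares of all genes tested. CD40, CD86 and CD274 had at most 12 counts in a control and passed the filter on low counts through the treated libraries. Such genes had to be higher with treatment, so the numbers upregulated cannot be weighed against these shares. CD40, which receives help from T cells, had 0 counts in the controls, 6, 10 and 12 after decitabine, and 10, 9 and 12 after decitabine plus SAM. CD274, an inhibitory ligand that interferon induces, rose by 4.76 and 3.39 and was lower after decitabine plus SAM than after decitabine, by -1.37 (adjusted p = 0.0081 in the edgeR fit). BTN2A2 fell after decitabine plus SAM by 0.32 (adjusted p = 0.031 from edgeR), but not with library size as the only scaling (adjusted p = 0.46) or without control replicate 2 (0.068), control replicate 3 (0.090) or combination replicate 3 (0.13).

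NLRC5, the relative of CIITA that serves class I promoters, had 47, 45 and 37 counts in the controls, 738, 698 and 699 after decitabine, and 89, 91 and 287 after decitabine plus SAM. Its log2 fold changes were 3.81 after decitabine (adjusted p = 0.00022 in the edgeR fit), 1.65 after decitabine plus SAM (adjusted p = 0.022, and 0.061, 0.060 and 0.076 without control replicate 1, 2 or 3, 0.066 without a filter and 0.051 with the replicate number as a block) and -2.16 between the treatments (adjusted p = 0.015, 0.056 without decitabine replicate 2 and 0.050 with only the 6 libraries compared). Of 13 class I genes, 12 were tested, and 12 were upregulated after decitabine and 11 after decitabine plus SAM, with a median of 2.20 and 1.14, while 10 were lower after decitabine plus SAM than after decitabine, beside 36.3%, 35.9% and 8.02% of all genes tested. Whether class I and class II genes differed in their change was not tested.

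**Figure D4:**
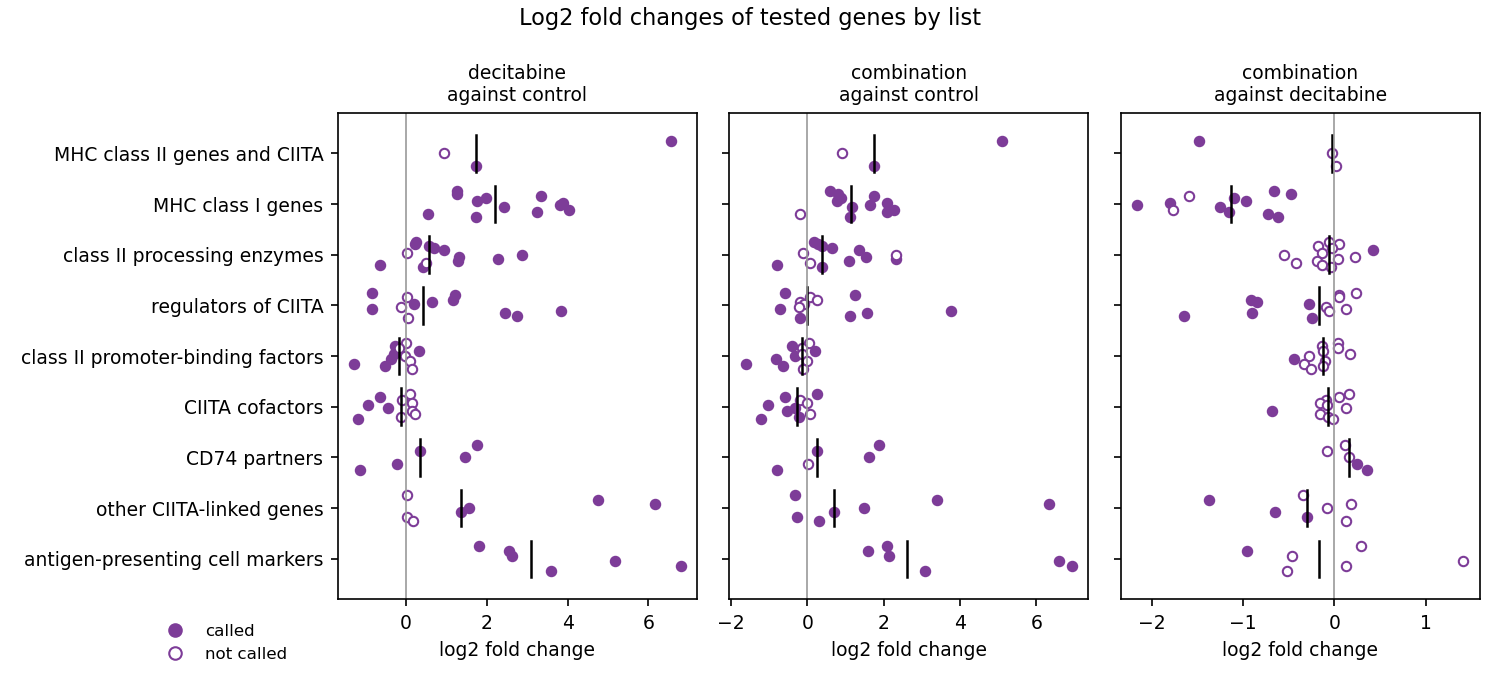
Log2 fold change (horizontal axis) of each tested gene in 9 lists (rows) for the 3 comparisons (panels), with filled points for genes called in edgeR's quasi-likelihood test and a vertical line at the median of each list. The 3 tested genes of the class II group lie to the right of 0 against the controls, and of these CD74 lies left of -1 between the treatments, where the class I genes have a median of -1.13.

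Markers of antigen-presenting cells were checked, since such cells carry class II genes at all times. Of 16 markers, 6 were tested and all 6 were upregulated with both treatments, beside 36.3% and 35.9% of all genes tested. Apart from CD68, the tested markers had at most 5 counts in a control and passed the filter through the treated libraries. Such genes had to be higher with treatment, so their calls cannot be weighed against these shares. The 16 markers summed to 38.7 to 48.6 CPM in the controls, 225 to 303 after decitabine and 108 to 185 after decitabine plus SAM. CD68 made up most of this, with 768 to 956 counts in the controls, 5228 to 7046 after decitabine and 2377 to 4246 after decitabine plus SAM. PTPRC, the common antigen of leukocytes, had 1 or 2 counts per control, 21 to 30 after decitabine and 13 to 23 after decitabine plus SAM. LAPTM5 had 0 counts in the controls and 12 to 19 in the treated libraries. Defining markers MS4A1 and CD1C had 0 counts in all libraries, TYROBP had at most 1, ITGAX at most 2 and LYZ at most 5. The chains of HLA-DR, which such cells make in large amounts, were at 0 or 1 count. The part of these markers in the rise of CD74 and HLA-DMA was not tested.

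Genes with a pattern like that of CD74 or CIITA were sought by Pearson's r of log2 CPM over the 9 libraries among 18450 genes with 10 or more counts on average in at least 1 group. Among the closest to CD74 were CTSB (r = 0.996), a protease of the endosome, TINAGL1 (0.995), DMWD (0.994) and CYTH1 (0.993). CTSB had 236 CPM in the controls, 349 after decitabine and 308 after decitabine plus SAM, in the same order as CD74. For CIITA the closest were DENND6B (0.963), ZFP82 (0.958), ENSG00000259522 (0.957), GPR155-DT (0.953) and ENSG00000288011 (0.951), all below 3 CPM in each group. Libraries of a group share their treatment, so these values describe group differences and are given without a test. HLA-DRA was too low for this comparison.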

How the data were processed

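Per the study's methods, the authors removed low-quality reads with Trim Galore and counted the rest with kallisto on GRCh38.p13. The authors deposited 1 estimated count per gene and library, without normalization, and these were the values used. The deposited log2 CPM values rescale the same libraries and were not used. The strand setting and the annotation release are not given in the sources used here. Of 60617 identifiers, 60357 matched GENCODE release 44, which gave symbols and positions.

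Counts were rounded. The test was that of edgeR 4.0.16 under R 4.3.3 after filterByExpr (TMM, robust quasi-likelihood, 1 mean per group, 9 libraries, common dispersion 0.00977). Standard errors were taken as the log2 fold change over the square root of F. Alternatives were DESeq2 1.42.0, voom with limma 3.58.1, other scaling and filters, 6 libraries, the replicate block and each library left out. The test was checked on simulated data, with changes set only in genes with more counts in the controls than CIITA, CD74 and HLA-DMA had. This check therefore does not show how the test behaves for genes as low as these. No library was a copy of another (chi-square per degree of freedom 6.40 to 26.1).

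Genes and lists were chosen with earlier results of these data known. Named genes were all 10 genes, fixed factors of the pathway, and the largest called change per list and direction. Promoters came from RefSeq. Some results on single genes are left out. Other tools were Python 3.11.15, pandas 2.3.3, scipy 1.17.1 and matplotlib 3.10.9.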

Additional observations from a re-analysis of the deposited data

How the results depend on the processing

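With decitabine and with decitabine plus SAM against the controls, 2 or 3 genes of the class II group were called under each alternative, the third being CIITA. Between the treatments 1 gene, CD74, was called under each alternative that kept all libraries, and 0 to 1 genes were called when a library was left out. With the replicate number as a block, 2, 2 and 1 genes were called in the 3 comparisons. Same-numbered libraries correlated with r = -0.0165 to 0.233 in their deviations from the group means. Between the 2 treatments, r was 0.233, 0.0359 and 0.229 for the libraries numbered 1, 2 and 3. It was -0.220 for decitabine replicate 1 with combination replicate 3, and -0.220 for decitabine replicate 3 with combination replicate 1. The fit as reported did not take the numbers as pairs, and whether they mark pairs was not tested. The block changed no call of the class II group, and with it 1766 genes were higher and 1890 lower between the treatments, instead of 1421 and 1487. With library size as the only scaling, the median change over all tested genes on the log2 scale, 0.03 with decitabine and 0.05 with decitabine plus SAM, became 0.28 and 0.27. The cause of these shifts was not tested. Depth limits the chain genes of HLA-DR, HLA-DP and HLA-DQ, HLA-DMB and CIITA, whose counts did not exceed 16 in any library.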
